A study of Mus musculus with 24 samples.

Results

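R448Q and H455R are substitutions in the same zinc finger of CTCF, finger 7, and the expression of mouse embryonic stem cells carrying each was compared here directly. All libraries of both lines were taken by their labels, which gave 4 of the 24 libraries of the series, 2 for each substitution. The cells were E14Tg2a embryonic stem cells of strain 129/Ola, grown without feeders in serum, leukemia inhibitory factor, a GSK3 inhibitor (CHIR99021) and a MEK inhibitor (PD0325901). Their endogenous CTCF carries an auxin-inducible degron, and each line also holds a stable Ctcf transgene that doxycycline switches on. The R448Q ID and H455R ID groups were given indole-3-acetic acid (IAA, the auxin) at 500 µM together with doxycycline at 1 µg/ml for 2 days, so the tagged CTCF was targeted for degradation in both. The line with a wild-type transgene under the same treatment (WT ID, 2 libraries) is given beside them as the baseline. Each substitution is present as 1 line, so effects of the substitution and of the line cannot be told apart. Nothing in the labels ties the 2 libraries of a line to separate cultures, so a p-value here covers the variation among these libraries, which may be technical.

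CTCF is the insulator protein of vertebrates: it binds a long DNA motif with an array of C2H2 zinc fingers and stops the cohesin complex as it extrudes chromatin loops. Each finger folds around a zinc ion held by a pair of cysteines and a pair of histidines, and residues at the start of its helix touch the bases of the motif. CTCF is known for separating enhancers from promoters, for the choice of clustered protocadherin promoters and for reading the methylation of imprinted control regions.

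The coding sequence of mouse Ctcf (mm10, chromosome 8, plus strand) held 11 such motifs in a protein of 736 residues. The search also accepted a cysteine in place of the last histidine. Finger 7 covered residues 439 to 460. The arginine replaced by glutamine in R448Q is encoded in exon 7 (chr8:105671425-105671427), and the histidine replaced by arginine in H455R in exon 8 (chr8:105674874-105674876). That histidine is the first of the zinc-binding histidines of the motif. The arginine is none of the zinc-binding residues and lies 7 residues before it, an offset at which C2H2 fingers commonly contact a base. The coding sequence of finger 7 is shown to place the affected codons, which are in capitals, the arginine codon before the histidine codon; the intron between exons 7 and 8 is left out.
Ctcf finger 7: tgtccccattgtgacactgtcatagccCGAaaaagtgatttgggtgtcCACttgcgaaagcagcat

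Ctcf itself was the first gene examined. It had 20200.5 and 20661 normalized counts in R448Q ID, 16951 and 16752 in H455R ID and 9973 and 10418 in WT ID, and 9248 and 9112 in the WT transgene line on IAA alone (WT IAA). Both R448Q ID libraries lay above both H455R ID libraries, and all 4 lay above the 18 other libraries of the table, which ranged from 8262 to 12255. The R448Q ID to H455R ID difference was 0.28 ± 0.062 on the log2 scale (limma adjusted p = 0.00103), and against WT ID the log2 difference was 1.003 in R448Q ID and 0.73 in H455R ID. On deposited TPM, a unit scaled by gene length and library total, the difference between the lines was 0.081 and was not called. In the stretch of chromosome 8 that holds Ctcf, the median gene itself stood above WT ID, relative to all genes, by 0.50 in R448Q ID and 0.60 in H455R ID. With a running median over neighbouring genes subtracted, the Ctcf difference between the lines was 0.40 and was called. Counts do not separate transgene from endogenous transcripts, and the substituted codons were not read here. Ctcfl, the germline paralog that binds the same motif, had 11.1 and 17.6 normalized counts in R448Q ID, against 15.5 and 28.3 in H455R ID (limma adjusted p = 0.529).

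Depth was 46040808 and 50355025 reads in R448Q ID, 35986461 and 49207897 in H455R ID and 57521611 and 42869348 in WT ID. The share of reads from the mitochondrial genome was 3.26% and 3.38% in R448Q ID, 1.78% and 2.28% in H455R ID and 1.62% and 1.92% in WT ID. Markers of embryonic stem cells were high in both lines: Pou5f1, the pluripotency factor OCT4, had 22778 and 23066 normalized counts in R448Q ID, against 21397 and 18994 in H455R ID (limma adjusted p = 0.06), and Nanog had 46344 and 49375 in R448Q ID against 42554 and 42359 in H455R ID (limma adjusted p = 0.103). Markers of most other cells were low: the 4 fibroblast markers summed to 1.72 to 1.77 TPM in R448Q ID and 6.21 to 9.86 TPM in H455R ID, and the 4 primitive endoderm markers to 5.60 to 5.64 and 9.98 to 11.1 TPM. The 3 trophectoderm markers summed to 5.26 to 5.55 TPM in R448Q ID and 3.58 to 4.08 TPM in H455R ID, and Elf5 was at 0 reads in 3 of these 4 libraries. The 3 neural markers, which include the tubulin gene Tubb3, summed to 163 to 167 TPM in R448Q ID and 73.3 to 89.6 TPM in H455R ID. The part of mitochondrial RNA and of other cell types in the results below was not tested.

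Expression differed at many genes between the lines. Of 18713 genes tested, 8349 (44.6%) passed a limma adjusted p under 0.05, of which 4093 (21.9%) were higher and 4256 (22.7%) lower in R448Q ID than in H455R ID. At least 2-fold changes were less balanced, with 781 genes (4.17%) higher and 1814 (9.69%) lower in R448Q ID. Set beside WT ID, R448Q ID had 8578 genes called (45.8%), 996 of them at least 2-fold higher and 1541 at least 2-fold lower (5.32% and 8.23%). H455R ID had 4322 called (23.1%), 727 at least 2-fold higher and 359 at least 2-fold lower (3.88% and 1.92%), and its count was 2684 with H455R ID replicate 1 left out, 2564 with WT ID replicate 1 left out and 2723 with WT ID replicate 2 left out. These comparisons with WT ID share its libraries. The median log2 difference between the lines over all genes was −0.0010 on normalized counts and −0.19 on TPM, where 2280 genes were higher and 6177 lower in R448Q ID. List counts below should therefore be read against a background in which 44.6% of all genes pass. List counts on TPM should be read against the 2280 higher and 6177 lower genes of the 18713 on that unit.

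The genes that differed at least 2-fold mostly had a WT ID level closer to that of H455R ID. This held for 600 of the 781 higher genes (76.8%) and 1327 of the 1814 lower genes (73.2%), and for 64.2% of all genes tested. Both R448Q ID libraries lay above all 18 other libraries of the table at 361 of the higher genes (46.2%), and below all of them at 954 of the lower genes (52.6%). Both H455R ID libraries lay outside those 18, on the other side, at 96 (12.3%) and 254 (14%). Over all genes tested the shares were 24.7% for R448Q ID and 7.94% for H455R ID, in either direction.

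The largest increases in R448Q ID over H455R ID were led by Igsf10, a secreted immunoglobulin superfamily protein, with 653 and 567 normalized counts in R448Q ID, 34.6 and 24.1 in H455R ID and 18.3 and 31.1 in WT ID (log2 difference 4.35 ± 0.30, limma adjusted p = 1.51e-09). Its R448Q ID values stood far above those of H455R ID and WT ID, which overlapped. Sohlh2, a germ cell transcription factor and the most abundant of the 12 increases, had 6704 and 6717 normalized counts in R448Q ID, 798 and 763 in H455R ID and 759 and 798 in WT ID (log2 difference 3.10 ± 0.19, limma adjusted p = 4.27e-10). H455R ID and WT ID overlapped at Sohlh2, and also at Mobp, a myelin protein gene, with 2349 and 1488 normalized counts in R448Q ID, 163 and 105 in H455R ID and 146 and 224 in WT ID (log2 difference 3.83 ± 0.29, limma adjusted p = 4.51e-09). Sh3bgrl (3.95), Ap1s3 (3.14), an adaptor subunit of clathrin-coated vesicles, Tspan6 (3.08), a tetraspanin, and Evc (3.06), a ciliary Hedgehog signalling protein, were also called in R448Q ID against WT ID and not in H455R ID against WT ID.

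At the remaining 5 of the 12 increases both lines were called against WT ID, R448Q ID above it and H455R ID below it. Cdc20b, a gene of centriole amplification in multiciliated cells, had 126 and 124 normalized counts in R448Q ID, 3.58 and 8.31 in H455R ID and 14.6 and 17.05 in WT ID (log2 difference 4.27 ± 0.44, limma adjusted p = 1.94e-07). Scn3a, a neuronal sodium channel, had 479 and 349 normalized counts in R448Q ID, 52.5 and 38.2 in H455R ID and 95.8 and 95.3 in WT ID (log2 difference 3.16 ± 0.26, limma adjusted p = 1.24e-08). No library of one group overlapped another at either gene. Tro, the adhesion gene trophinin, had the smallest standard error of the 12 (2.99 ± 0.12), and its values were 1629 and 1527 normalized counts in R448Q ID, 197 and 199 in H455R ID and 399 and 458 in WT ID. The sorting nexin Snx19 (2.85) and the ciliary transition zone gene Cc2d2a (2.82) showed the same order.

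The largest decreases in R448Q ID included contractile and epithelial genes. Acta2, smooth muscle actin, had 2.02 and 0.924 normalized counts in R448Q ID, 139.5 and 133 in H455R ID and 27.8 and 38.1 in WT ID (log2 difference −5.83 ± 0.56, limma adjusted p = 7.51e-08). Myl9, the myosin regulatory light chain of smooth muscle and non-muscle cells, had 9.07 and 4.62 normalized counts in R448Q ID, 97.8 and 152 in H455R ID and 32.9 and 33.1 in WT ID (log2 difference −4.03 ± 0.42, limma adjusted p = 2.32e-07). Krt7, a keratin of simple epithelia, had 16.1 and 20.3 normalized counts in R448Q ID, 440.0 and 249 in H455R ID and 33.6 and 45.1 in WT ID (log2 difference −4.12 ± 0.35, limma adjusted p = 1.47e-08). At all 3 genes the R448Q ID libraries lay below both WT ID libraries and the H455R ID libraries above them, without overlap. The secreted protease gene Klk10 (−4.98), Dppa1 (−4.86), the activin-binding protein gene Fstl3 (−4.01), the tryptase gene Tpsg1 (−3.88) and the endocytic adaptor gene Dab2 (−3.78) had WT ID between the lines as well.

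Ptpru and Tspan32 showed the other arrangements. Ptpru, a receptor tyrosine phosphatase, had 61.5 and 43.4 normalized counts in R448Q ID, 1529 and 1562 in H455R ID and 55.6 and 51.1 in WT ID (log2 difference −4.87 ± 0.26, limma adjusted p = 9.00e-11). R448Q ID and WT ID overlapped and H455R ID stood above both, with a log2 difference from WT ID of −0.044 in R448Q ID and 4.83 in H455R ID. Its highest value in the 18 other libraries was 179. Tspan32, a tetraspanin gene in the Kcnq1 imprinted domain, had 31.3 and 21.2 normalized counts in R448Q ID, 408 and 447.9 in H455R ID and 473 and 420.1 in WT ID (log2 difference −3.999 ± 0.21, limma adjusted p = 8.63e-11), so that H455R ID and WT ID overlapped and R448Q ID stood below. Epn3 (−4.79), an epsin of clathrin endocytosis, and Pramel7 (−4.07), which opposes DNA methylation in mouse ground-state stem cells, were likewise called in R448Q ID against WT ID and not in H455R ID. All 24 largest differences were called with each library of the 2 lines left out in turn. The kit was a stranded one, but the strand setting of the counting is not given in the sources used here. Of the 24 genes, 11 overlap a gene on the opposite strand (Igsf10, Cdc20b, Sh3bgrl, Scn3a, Evc, Klk10, Krt7, Fstl3, Tspan32, Tpsg1 and Dab2), as do Cd81, Cdkn1c, Nnat, Krt8, Junb, Spry4, Notum, Sycp1, Tet3 and Dnmt3b below, and their reads are not assigned with certainty.

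**Figure D1:**
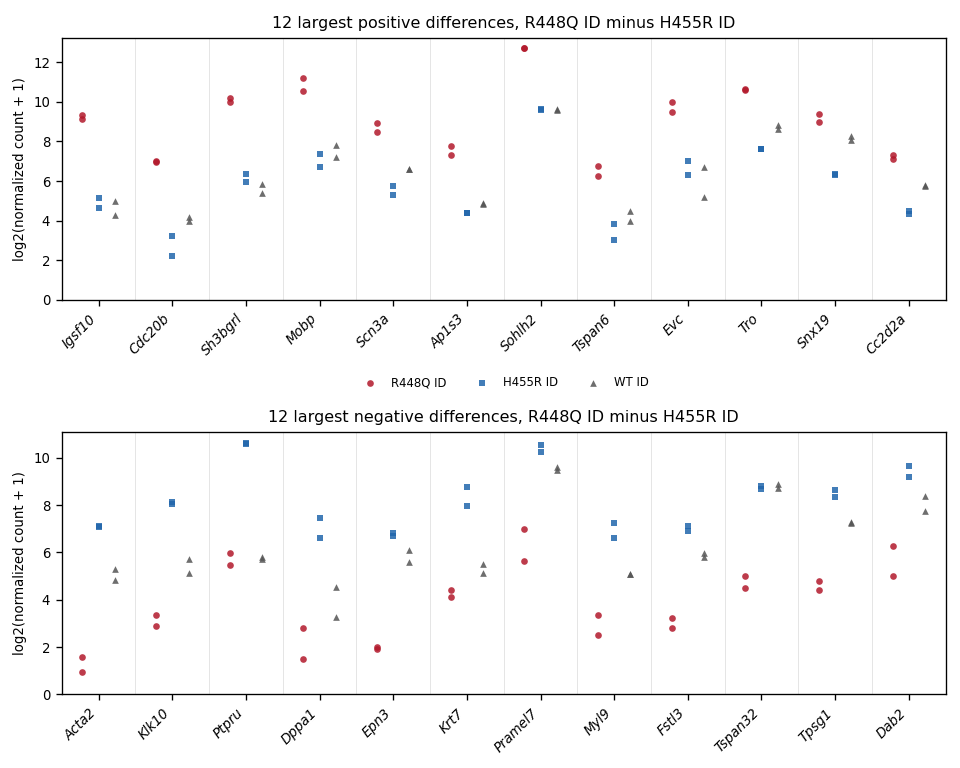
Normalized counts of the 12 largest increases (top) and 12 largest decreases (bottom) in R448Q ID relative to H455R ID, as log2(count + 1), with 1 point per library. Circles are R448Q ID, squares H455R ID and triangles WT ID; at Igsf10 the squares and triangles share a range, and at Ptpru the circles and triangles do.

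A share of the increases followed chromosomes. Relative to the median of all genes, the median gene of chromosome 1 was 0.47 higher (log2) in R448Q ID than in H455R ID, that of chromosome 3 was 0.49 higher and that of chromosome 11 was 0.12 higher. On chromosome 1, 537 of 1167 tested genes were higher and 93 lower, and on chromosome 3 460 of 927 were higher and 70 lower. Against WT ID the chromosome 1 median was 0.47 in R448Q ID and 0.016 in H455R ID, and the chromosome 3 median 0.45 and −0.023. The 2 libraries of each line gave nearly the same medians (0.48 and 0.47 for chromosome 1 in R448Q ID, 0.0092 and 0.012 in H455R ID). No test was made of these medians.

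Chromosome 8, which carries Ctcf, was high in both lines, with a median against WT ID of 0.45 in R448Q ID and 0.47 in H455R ID. The median over its genes of the R448Q ID minus H455R ID difference, relative to all genes, was 0.021. Along the chromosome the lines parted: with its tested genes divided into 10 bins of equal size in chromosome order, H455R ID stood at −0.041 and −0.18 against WT ID in bins 1 and 2, where R448Q ID stood at 0.40 and 0.36. In bins 3 to 10 H455R ID ranged from 0.43 to 0.63 and R448Q ID from 0.29 to 0.64. Chromosome 11 was uneven in R448Q ID, at 0.48 and 0.29 in bins 1 and 2, −0.24 to −0.023 in bins 3 to 6 and 0.29 to 0.49 in bins 7 to 10, while H455R ID ranged from −0.024 to 0.088 over all of it. Chromosomes 1 and 3 were high throughout in R448Q ID, at 0.35 to 0.60 and 0.35 to 0.68. The 15 tested genes of the Y chromosome had a median of 0.82 in R448Q ID and −0.18 in H455R ID against WT ID. Ddx3y, a Y-linked RNA helicase, had 12642 and 13128 normalized counts in R448Q ID, 6151 and 5577 in H455R ID and 6855 and 6519 in WT ID.

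On the other 16 chromosomes the median difference between the lines lay between −0.17 (chromosome 7) and 0.076 (X), but single stretches of them differed more. Bin 10 of chromosome 17 stood at 0.91 in R448Q ID and −0.0073 in H455R ID against WT ID. Its median difference between the lines was 0.93, the greatest of any bin on any chromosome. Of its 87 genes 61 were higher and 2 lower in R448Q ID than in H455R ID. Bin 9 of chromosome 12, which holds Meg3, Rian and Mirg, stood at −0.64 in R448Q ID and 0.27 in H455R ID, with 38 of 73 genes lower and 7 higher. Bin 10 of chromosome 15, which holds Krt7, Krt8, Krt18, Hoxc8 and Hoxc10, stood at −0.39 and 0.15, with 42 of 71 lower and 5 higher. These 3 bins were picked for their differences, which were not tested.

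Genes of chromosomes 1, 3, 8 and 11 were 23.7% of the genes tested, 42.1% of those higher in R448Q ID and 18.6% of those at least 2-fold lower. Among the abundant genes of these chromosomes, Ncl on chromosome 1, which encodes nucleolin, had 106449 and 107007 normalized counts in R448Q ID, 50997 and 47717 in H455R ID and 47151 and 52994 in WT ID (log2 difference 1.11 ± 0.11, limma adjusted p = 6.19e-08). It stayed called and positive, at 0.65, after each gene's local chromosome level, a running median over its neighbours, was subtracted. Fn1 (fibronectin, chromosome 1) and Cnn3 (calponin, chromosome 3) changed sign with this subtraction: their differences of 0.27 and 0.23 became −0.14 and −0.27. Neither call held when H455R ID replicate 2 was left out (0.13 and 0.17), nor when R448Q ID replicate 2 was (0.29 and 0.15), and that of Fn1 was also lost without R448Q ID replicate 1 (0.25). Over all genes, 3802 genes were higher and 4017 lower in R448Q ID after the subtraction, an alternative added after the data were seen. DNA copy number was not measured in these files.

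**Figure D2:**
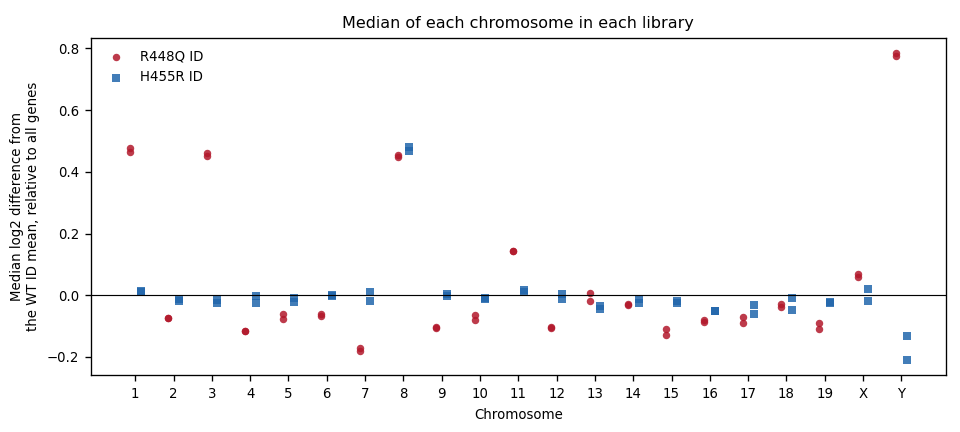
Median log2 difference from the WT ID mean over the tested genes of each chromosome, relative to the median over all genes, with 1 point per library (circles R448Q ID, squares H455R ID). Chromosomes 1, 3 and Y are high in R448Q ID alone and chromosome 8 in both lines.

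**Figure D3:**
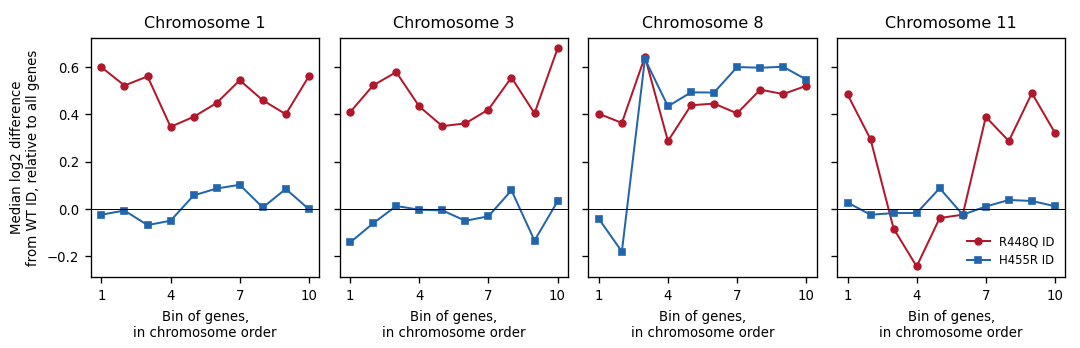
The same medians against WT ID along chromosomes 1, 3, 8 and 11, for the tested genes of each in 10 bins of equal size in chromosome order (circles R448Q ID, squares H455R ID). On chromosome 8 the H455R ID line starts near −0.041 and −0.18 and then reaches 0.43 to 0.63, and on chromosome 11 the R448Q ID line is low in bins 3 to 6 and positive in the others.

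Imprinted genes, which are expressed from 1 parental copy, differed at several domains. Of 51 listed genes 46 were measured, and 15 were higher and 19 lower in R448Q ID than in H455R ID (median −0.28). In the Kcnq1 domain of chromosome 7, where the maternal copy expresses growth-limiting genes and the paternal copy expresses the silencing RNA Kcnq1ot1, the span from Ascl2 to Nap1l4 held 13 tested genes. There 10 were lower and 2 higher in R448Q ID, a span chosen after its values were seen. Phlda2, a placental growth suppressor, had 24.2 and 32.3 normalized counts in R448Q ID, 392 and 376 in H455R ID and 377.4 and 425 in WT ID (log2 difference −3.73 ± 0.22, limma adjusted p = 3.14e-10). Slc22a18, a membrane transporter, had 21.2 and 22.2 normalized counts in R448Q ID, 275 and 278 in H455R ID and 247 and 298 in WT ID (log2 difference −3.61 ± 0.22, limma adjusted p = 2.99e-10). H455R ID overlapped WT ID at both genes, and R448Q ID stood far below them. Cdkn1c, the cyclin-dependent kinase inhibitor p57, had 68.6 and 85.9 normalized counts in R448Q ID, 390.0 and 288 in H455R ID and 287 and 258 in WT ID (log2 difference −2.11 ± 0.18, limma adjusted p = 1.66e-08), and H455R ID was not called against WT ID (limma adjusted p = 0.257). Ascl2, a trophoblast transcription factor, had 15.1 and 19.4 normalized counts in R448Q ID, 75.1 and 84.8 in H455R ID and 204 and 102 in WT ID (log2 difference −2.16 ± 0.34, limma adjusted p = 3.04e-05). Cd81, a tetraspanin gene, was lower in R448Q ID too (−1.37 ± 0.11).

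Kcnq1ot1, named after its value was seen, went the other way, with 16139 and 14406 normalized counts in R448Q ID, 7397 and 7949 in H455R ID and 5617 and 5376 in WT ID (log2 difference 0.99 ± 0.26, limma adjusted p = 0.00403). No library of the 3 groups overlapped another group, and the 18 other libraries ranged from 2784 to 12946. On TPM the difference was 0.79 and was not called. Kcnq1 itself was near the lower limit of detection, with 2.02 and 0.924 normalized counts in R448Q ID, 15.5 and 12.5 in H455R ID and 10.97 and 13.04 in WT ID (log2 difference −2.63 ± 0.44, limma adjusted p = 5.92e-05). Kcnq1 and Kcnq1ot1 lie on opposite strands of the same stretch, so reads between them are not assigned with certainty.

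In the Meg3 domain of chromosome 12, whose maternal copy expresses long noncoding RNAs and small RNAs, the span from Meg3 to Mirg held 34 tested genes, of which 30 were lower and 0 higher in R448Q ID (median −1.69). The span was chosen after its values were seen, and many of its genes are microRNA genes inside the host transcripts, with which they share reads. Meg3 had 5049.6 and 5077 normalized counts in R448Q ID, 15526 and 18251 in H455R ID and 9365 and 10902 in WT ID (log2 difference −1.73 ± 0.26, limma adjusted p = 1.47e-05). Rian had 7441 and 6853 normalized counts in R448Q ID, 23029 and 22291 in H455R ID and 13274 and 14461 in WT ID (log2 difference −1.67 ± 0.18, limma adjusted p = 3.76e-07), and Mirg differed by −1.83 ± 0.28. WT ID lay between the lines at all 3 transcripts, without overlap. At Meg3 the 18 other libraries ranged widely, from 785 to 14392, so R448Q ID lay inside their range and H455R ID above it. The protein-coding genes at the edges of this domain, Dlk1 and Dio3, were not called (limma adjusted p = 0.844 and 0.264). Nnat, the neuronatin gene on chromosome 2, named after its value was seen, was lower in R448Q ID, with 22.2 and 24.02 normalized counts in R448Q ID, against 79.9 and 114 in H455R ID (log2 difference −2.001 ± 0.22, limma adjusted p = 5.31e-07). H19 and Igf2, whose shared control region is a classical CTCF-dependent insulator, averaged under 10 normalized counts over the libraries and were not tested. H19 was near the floor in every group, with 0 and 0 normalized counts in R448Q ID, 10.7 and 4.16 in H455R ID and 0 and 3.01 in WT ID.

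Most measured keratin and trophectoderm genes were lower in R448Q ID. Of 13 measured genes of this list 11 were lower and 1 higher, with a median of −1.11, against 22.7% lower among all genes. Krt19 had 9.07 and 14.8 normalized counts in R448Q ID, 159 and 139 in H455R ID and 32.2 and 40.1 in WT ID (log2 difference −3.57 ± 0.36, limma adjusted p = 1.16e-07). Krt18 had 82.7 and 103 normalized counts in R448Q ID, 582 and 485 in H455R ID and 281 and 227 in WT ID (log2 difference −2.52 ± 0.17, limma adjusted p = 1.20e-09). Krt8, the type II partner of Krt18 in simple epithelia and early embryos, had 457 and 749 normalized counts in R448Q ID, 2622 and 2279 in H455R ID and 1196 and 1062 in WT ID (log2 difference −2.06 ± 0.19, limma adjusted p = 5.34e-08). At these 3 keratins and at Krt7 every R448Q ID library was below, and every H455R ID library above, both WT ID libraries. Cdx2, the trophectoderm master factor, was the member that went up in R448Q ID, with 175 and 162 normalized counts in R448Q ID, 82.3 and 80.6 in H455R ID and 40.2 and 45.1 in WT ID (log2 difference 1.04 ± 0.31, limma adjusted p = 0.0104). Its call ended without R448Q ID replicate 1 (0.98, limma adjusted p = 0.0642) or without H455R ID replicate 2 (1.02, limma adjusted p = 0.0508). The summed level of the list was 153 TPM in both R448Q ID libraries, 338 and 308 TPM in H455R ID and 271 and 235 TPM in WT ID.

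**Figure D4:**
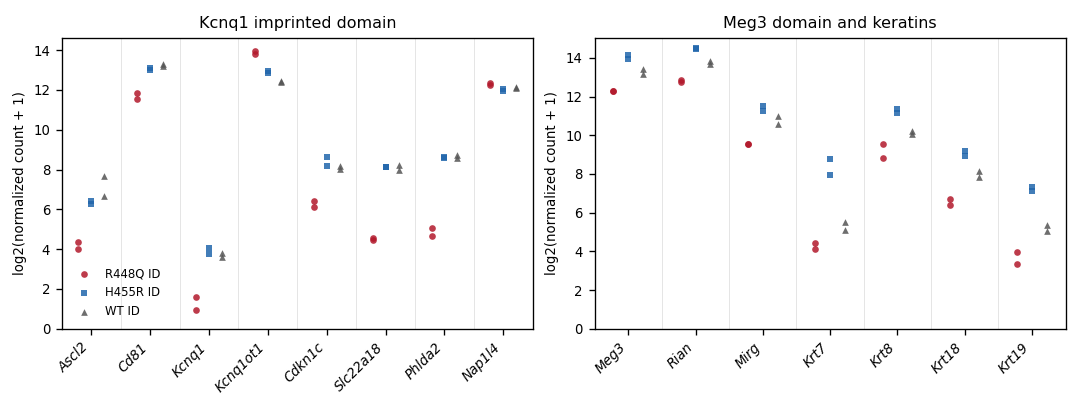
Normalized counts per library, as log2(count + 1), for genes of the Kcnq1 domain in chromosome order (left), and for Meg3 domain transcripts and keratins (right). Circles are R448Q ID, squares H455R ID and triangles WT ID; in the left panel squares and triangles overlap at Phlda2, Slc22a18 and Kcnq1, and in the right panel the triangles lie between the other symbols at every gene.

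Markers of differentiated cells were examined with the keratins. Of 8 measured fibroblast genes 5 were lower and 2 higher in R448Q ID. Col1a1, a collagen chain, had 78.6 and 66.5 normalized counts in R448Q ID, against 186 and 259 in H455R ID (log2 difference −1.59 ± 0.23, limma adjusted p = 1.05e-05), and Thy1, a surface glycoprotein, had 41.3 and 43.4 against 163 and 258 (−2.25 ± 0.27). Vim, the intermediate filament vimentin, was higher in R448Q ID (0.85 ± 0.11). Of 12 primitive endoderm genes 5 were lower and 1 higher (50% called, against 44.6% of all genes). Among the lower ones Gata6, an endoderm transcription factor, had 29.2 and 45.3 normalized counts in R448Q ID, against 130.0 and 78.95 in H455R ID (log2 difference −1.45 ± 0.26, limma adjusted p = 1.48e-04). Of 6 neural ectoderm genes 3 were higher and 1 lower, and Sox1, an early neural transcription factor, had 792 and 657 normalized counts in R448Q ID, against 200.3 and 235 in H455R ID (log2 difference 1.73 ± 0.16, limma adjusted p = 3.94e-08). Of these 6 genes 4 lie on chromosomes 1, 3, 8, 11 or Y, Sox1 among them in bin 1 of chromosome 8. The other 2 gave 0 higher and 1 lower, and after either centring on the chromosome level the 6 gave 2 higher and 2 lower. Pax6 was not called (0.56 ± 0.41). Whether the share of such cells or the RNA per cell differed cannot be told apart in bulk libraries.

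Hox genes, the patterning factors of 4 clusters, were lower in R448Q ID in 15 of 31 measured members and higher in 1 (median −0.86, or −0.55 after the running median was subtracted). The share called was 51.6%, against 44.6% of all genes. The calls were uneven over the clusters: 8 of 9 measured genes of cluster C and 4 of 7 of cluster D were lower, against 2 of 9 of cluster A and 1 of 6 of cluster B. Hoxc8 had 26.2 and 27.7 normalized counts in R448Q ID, 176 and 147 in H455R ID and 85.6 and 82.2 in WT ID (log2 difference −2.54 ± 0.27, limma adjusted p = 2.38e-07). Hoxc10 had 109 and 108 normalized counts in R448Q ID, 327 and 319 in H455R ID and 123 and 166 in WT ID (log2 difference −1.56 ± 0.22, limma adjusted p = 8.78e-06). WT ID lay between the lines at both genes, nearer to R448Q ID at Hoxc10. Hoxc5 and Hoxc6 differed by −1.99 ± 0.32 and −1.66 ± 0.30. The difference between the clusters was not tested. Hoxa7, the member that was higher and was named after its value was seen, had 414 and 406 normalized counts in R448Q ID, against 277 and 231 in H455R ID (log2 difference 0.70 ± 0.18, limma adjusted p = 0.00331). Its call ended without H455R ID replicate 2 (0.57, limma adjusted p = 0.0507).

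Clustered protocadherins are neuronal adhesion genes whose promoters are chosen through CTCF sites. The 35 listed members of the alpha and beta clusters were below the expression limit, with at most 7.39 normalized counts in a library of either line, and 16 of 22 gamma members were measured. Of these 9 were higher in R448Q ID than in H455R ID, all at least 2-fold, 0 were lower, and the median was 1.52. Pcdhga11 had 57.5 and 48.96 normalized counts in R448Q ID, 7.16 and 12.5 in H455R ID and 51.9 and 35.1 in WT ID (log2 difference 2.37 ± 0.39, limma adjusted p = 5.57e-05). Pcdhgb8 had 42.3 and 31.4 normalized counts in R448Q ID, 11.9 and 4.99 in H455R ID and 42.4 and 26.1 in WT ID (log2 difference 2.09 ± 0.43, limma adjusted p = 5.06e-04). H455R ID stood below the other groups at both genes, while R448Q ID and WT ID overlapped. Pcdhgb5 lay above WT ID in R448Q ID and below it in H455R ID, with 49.4 and 33.3 normalized counts in R448Q ID, 11.9 and 4.16 in H455R ID and 18.3 and 15.04 in WT ID (log2 difference 2.35 ± 0.45, limma adjusted p = 2.75e-04). The constant-end member Pcdhgc3, the most abundant one and named after its value was seen, had 1417 and 1268 normalized counts in R448Q ID, against 1575 and 1375 in H455R ID and was not called (limma adjusted p = 0.327), while on TPM it was lower in R448Q ID (−0.33). Gamma genes share their last exons and overlap one another, so their reads are not assigned with certainty.

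**Figure D5:**
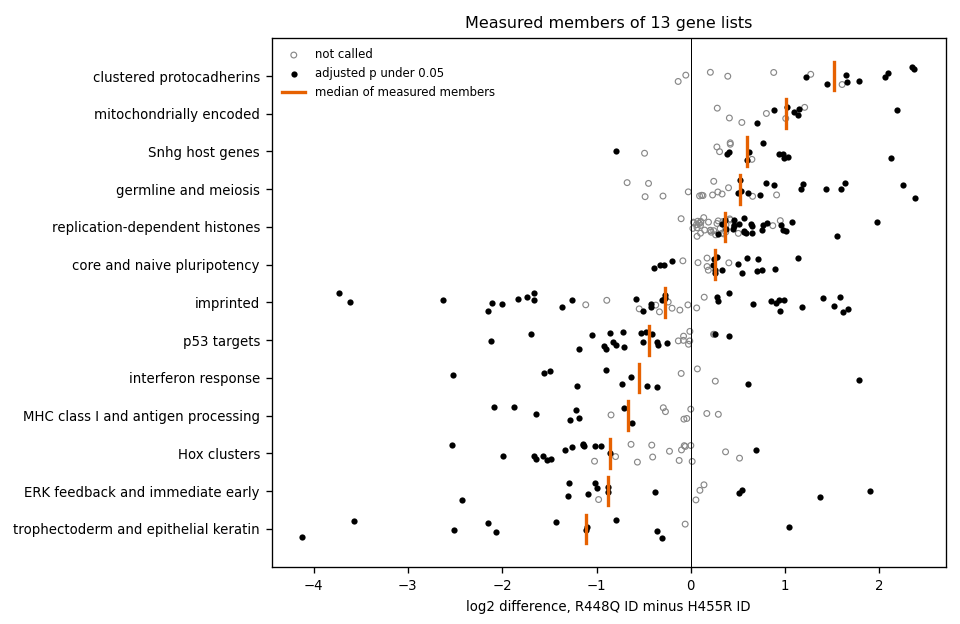
Log2 differences R448Q ID minus H455R ID of the measured members of 13 gene lists, 1 point per gene, filled where the limma adjusted p was under 0.05 and open otherwise; bars mark list medians. Medians run from 1.52 for the clustered protocadherins to −1.11 for the trophectoderm and keratin genes, while the median over all genes is −0.0010.

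Pluripotency genes differed mostly by under 2-fold. Of 24 core and naive genes 14 were higher and 4 lower in R448Q ID, with a median of 0.26 and 1 at least 2-fold apart. Nr0b1, a repressor of the naive network, had 3335 and 3356 normalized counts in R448Q ID, 1575 and 1468 in H455R ID and 3561 and 3301 in WT ID (log2 difference 1.14 ± 0.10, limma adjusted p = 4.34e-08), with H455R ID below the other groups. Sox2, on chromosome 3, had 23969.6 and 22710.1 normalized counts in R448Q ID, against 15014 and 12786 in H455R ID (log2 difference 0.75 ± 0.077, limma adjusted p = 1.72e-07), and after the local chromosome level was subtracted the difference was 0.17 and was not called. On TPM 8 of the 24 were higher and 4 lower. Of 16 formative and primed genes 6 were higher and 6 lower, and on TPM 3 and 6.

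Signalling genes differed in both directions. Of 17 immediate early and ERK feedback genes 9 were lower and 4 higher in R448Q ID (median −0.87). Fos, an immediate early transcription factor, had 121 and 122 normalized counts in R448Q ID, 848 and 509 in H455R ID and 445 and 528 in WT ID (log2 difference −2.43 ± 0.29, limma adjusted p = 1.17e-06). Junb, its dimer partner, had 181 and 215 normalized counts in R448Q ID, 449.6 and 534 in H455R ID and 321 and 338.9 in WT ID (log2 difference −1.30 ± 0.18, limma adjusted p = 6.80e-06). Both were lowest in R448Q ID, without overlap with the other groups. Spry4, a feedback inhibitor of receptor tyrosine kinases, had the opposite order, with 437 and 397 normalized counts in R448Q ID, 88.2 and 139 in H455R ID and 221 and 199 in WT ID (log2 difference 1.90 ± 0.24, limma adjusted p = 2.15e-06), and Myc had 624 and 703 normalized counts in R448Q ID, against 271 and 240.2 in H455R ID (log2 difference 1.37 ± 0.24, limma adjusted p = 1.15e-04). Of 14 BMP and Id genes 1 was higher and 4 were lower (1 and 6 on TPM). The share called on normalized counts was 35.7%, under the 44.6% of all genes. Id2, an inhibitor of bHLH factors, had 50.4 and 46.2 normalized counts in R448Q ID, 277 and 293 in H455R ID and 243 and 233 in WT ID (log2 difference −2.54 ± 0.22, limma adjusted p = 2.08e-08), and the receptor-regulated Smad9 had 423 and 297 against 57.2 and 61.5 (2.56 ± 0.26). Of 16 Wnt targets 8 were higher and 6 lower (5 and 6 on TPM): the secreted inhibitors Dkk1 and Notum differed by −2.40 ± 0.23 and 1.55 ± 0.18.

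Targets of p53 were lower in R448Q ID in 18 of 28 genes and higher in 2 (median −0.44). Fas, a death receptor, had 7.06 and 5.54 normalized counts in R448Q ID, 32.2 and 29.1 in H455R ID and 6.58 and 8.02 in WT ID (log2 difference −2.12 ± 0.39, limma adjusted p = 1.51e-04), with H455R ID above the other groups. Gdf15, a stress-induced cytokine, had 309.6 and 240.2 normalized counts in R448Q ID, 961 and 815 in H455R ID and 784 and 689.9 in WT ID (log2 difference −1.70 ± 0.22, limma adjusted p = 2.40e-06), with R448Q ID below them. Bbc3 (PUMA) and Plk2 differed by −1.18 ± 0.19 and −1.04 ± 0.16. On TPM 23 of the 28 were lower and 0 higher, but there the median of all genes was itself −0.19. Relative to that, the list median on TPM was −0.44, the same as on normalized counts.

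Several antigen presentation and interferon genes were lower in R448Q ID. Of 16 measured class I and antigen processing genes 8 were lower and 0 higher (median −0.67, 50% called against 44.6% of all genes). Tapbp, the peptide-loading chaperone tapasin, had 1524 and 1713 normalized counts in R448Q ID, 3935 and 3594 in H455R ID and 3400.0 and 3288 in WT ID (log2 difference −1.22 ± 0.095, limma adjusted p = 5.94e-09). Tap1, the peptide transporter, had 55.5 and 57.3 normalized counts in R448Q ID, against 215 and 276 in H455R ID (log2 difference −2.09 ± 0.21, limma adjusted p = 1.35e-07), and overlaps Psmb9 on the opposite strand. Of 14 interferon response genes 9 were lower and 2 higher, with a median of −0.55, or −0.28 after the running median was subtracted. Oasl2 had 8.07 and 6.47 normalized counts in R448Q ID, 50.1 and 42.4 in H455R ID and 3.66 and 6.02 in WT ID (log2 difference −2.52 ± 0.48, limma adjusted p = 2.65e-04), where H455R ID alone was high. Ddx58, the RNA sensor RIG-I, went the other way, with 445 and 513 normalized counts in R448Q ID, 134 and 142 in H455R ID and 388 and 384 in WT ID (log2 difference 1.79 ± 0.15, limma adjusted p = 1.42e-08), where H455R ID alone was low.

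Germline and meiosis genes were higher in R448Q ID in 14 of 29 members and lower in 0 (median 0.52). The share called was 48.3%, against 44.6% of all genes. Dazl, a germ cell RNA-binding protein, had 3959.6 and 4376 normalized counts in R448Q ID, 1611 and 1477 in H455R ID and 1572 and 1139 in WT ID (log2 difference 1.43 ± 0.23, limma adjusted p = 4.18e-05), and H455R ID and WT ID overlapped. Sycp1, a synaptonemal complex protein on chromosome 3, had 279 and 212 normalized counts in R448Q ID, 94.2 and 63.99 in H455R ID and 47.5 and 49.1 in WT ID (log2 difference 1.64 ± 0.23, limma adjusted p = 9.91e-06). With genes of chromosomes 1, 3, 8, 11 and Y left out, 8 of 22 were higher and 0 lower. On TPM 9 of the 29 were higher and 3 lower. The 14 measured genes of the 2-cell-like state gave 0 calls between the lines by limma, edgeR or DESeq2, with 0, 2 and 0 of the 14 at an unadjusted p under 0.05. Their median was −0.76 between the lines, and against WT ID 1.69 in R448Q ID and 2.28 in H455R ID. The list was low, summing to 12.8 and 13.9 TPM in R448Q ID, 20.1 and 26.35 in H455R ID and 5.91 and 3.14 in WT ID. At such levels the absence of calls does not show that the lines were alike.

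Replication-dependent histone genes were higher in R448Q ID in 25 of 59 members and lower in 0, with a median of 0.37. The share called was 42.4%, near the 44.6% of all genes. On TPM 15 were higher (median 0.17), and after the running median was subtracted 21 were (median 0.15). Of 51 on chromosome 13, 21 were higher (median 0.33), and of 8 on chromosome 3, 4 were higher (median 0.95). H4c14, on chromosome 3, had 8124 and 6299 normalized counts in R448Q ID, against 3148 and 4026 in H455R ID (log2 difference 1.01 ± 0.15, limma adjusted p = 1.54e-05). Histone genes are near-identical copies, so their reads are not assigned with certainty. Host genes of small nucleolar RNAs rose in 10 of 17 members and fell in 1. Snhg17 had 2127 and 2051 normalized counts in R448Q ID, 397 and 580.1 in H455R ID and 1017 and 1045 in WT ID (log2 difference 2.12 ± 0.22, limma adjusted p = 1.44e-07), with WT ID between the lines.

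Mitochondrially encoded genes were higher in R448Q ID in 7 of 13 members and lower in 0 (median 1.01), and higher in 3 on TPM and 4 with quantile normalization. mt-Cytb, a subunit of complex III, had 262895 and 299482 normalized counts in R448Q ID, 119488 and 136371 in H455R ID and 87892 and 107503 in WT ID (log2 difference 1.14 ± 0.29, limma adjusted p = 0.00358). The replicates of mt-Atp6 differed widely in R448Q ID, at 831 and 157. Nuclear genes of oxidative phosphorylation were higher in 15 of 44 members and lower in 1 on normalized counts (median 0.18), and higher in 8 and lower in 9 on TPM (median −0.015). For cohesin and its loaders the median was 0.18 on normalized counts and −0.019 on TPM. Of these 16 genes 6 were higher and 0 lower on normalized counts, and 0 higher and 2 lower on TPM. The shares called on normalized counts were 36.4% for nuclear oxidative phosphorylation and 37.5% for cohesin, both under the 44.6% of all genes. For Ctcf and its insulator partners 14 of 20 were higher and 2 lower on normalized counts, and 6 and 3 on TPM.

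The remaining groups were mixed, and their counts on TPM carry the −0.19 median of all genes on that unit. The Xlr family of the X chromosome split: Xlr3a had 1384 and 1380.2 normalized counts in R448Q ID, 352 and 493 in H455R ID and 1642 and 1522 in WT ID (log2 difference 1.73 ± 0.21, limma adjusted p = 1.84e-06), and Xlr4a differed by 2.07 ± 0.24, while Xlr5c had 3.02 and 3.69 normalized counts in R448Q ID, 15.5 and 28.3 in H455R ID and 159 and 139 in WT ID (log2 difference −2.34 ± 0.36, limma adjusted p = 2.81e-05). At Xlr5c both lines lay far below WT ID, and at Xlr3a H455R ID did. These genes are near-identical, so their reads are not assigned with certainty. Glycolysis and hypoxia genes were lower in 12 and higher in 5 of 30, with the neuronal enolase gene Eno2 at −1.69 ± 0.16, and on TPM lower in 16 and higher in 0. Cholesterol synthesis genes were lower in 8 and higher in 1 of 23, and on TPM lower in 14 and higher in 1. The share called on normalized counts, 39.1%, was under the 44.6% of all genes, and the list median was −0.067. Integrated stress response genes were lower in 8 and higher in 5 of 31 (41.9% called, near the share of all genes). They were lower in 13 and higher in 4 on TPM, and 7 each way after the running median was subtracted. Cell cycle and replication genes were higher in 15 and lower in 3 of 34, led by the replication licensing factor Cdc6 (1.23 ± 0.081), and on TPM higher in 10 and lower in 8. Heat shock genes were higher in 6 and lower in 5 of 23 (47.8% called, near the share of all genes), and on TPM higher in 4 and lower in 10. DNA methylation genes were higher in 9 and lower in 3 of 21, with the methylcytosine oxidase gene Tet3 at 1.15 ± 0.098 and the methyltransferase gene Dnmt3b at −0.49 ± 0.099. On TPM the DNA methylation genes were higher in 5 and lower in 4. Aryl hydrocarbon receptor genes were split 4 to 4 among 11 (on TPM 3 higher and 6 lower), and Nodal and mesendoderm genes were higher in 2 and lower in 4 of 11.

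Promoters of the changed genes were searched for the core of the CTCF motif (CC, any 3 bases, AG, any 2 bases, GGC) on both strands (RefSeq, GRCm38.p6, 250 bases before to 50 after the start). It was found in 14.3% of the promoters of tested genes, in 12.8% of those at least 2-fold higher and in 12.98% of those at least 2-fold lower in R448Q ID, and in 9.84% of all promoters in the table. Dab2 and Krt18 are among the genes described above that hold it, and both promoters are shown as examples, with the match in capitals. Both lie on the plus strand of chromosome 15, at chr15:6386498-6386797 and chr15:102027966-102028265, and the Krt18 match reads on the minus strand.
Dab2: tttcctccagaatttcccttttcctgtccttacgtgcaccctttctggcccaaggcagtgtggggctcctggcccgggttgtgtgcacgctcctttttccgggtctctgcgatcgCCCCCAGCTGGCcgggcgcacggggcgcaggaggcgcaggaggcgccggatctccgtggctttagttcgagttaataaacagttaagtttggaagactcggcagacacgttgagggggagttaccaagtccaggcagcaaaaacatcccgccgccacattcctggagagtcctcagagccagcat
Krt18: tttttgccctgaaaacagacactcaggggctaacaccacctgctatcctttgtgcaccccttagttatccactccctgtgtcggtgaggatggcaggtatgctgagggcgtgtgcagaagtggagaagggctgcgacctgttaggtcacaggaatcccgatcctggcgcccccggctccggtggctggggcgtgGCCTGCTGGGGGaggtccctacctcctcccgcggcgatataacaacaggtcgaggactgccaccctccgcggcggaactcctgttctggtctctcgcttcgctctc
A match is a stretch of letters and not a measured binding site.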

How the data were processed

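Total RNA was sequenced in 24 libraries, of which 22 (11 groups) stand in the table used. The deposited values are read counts per gene divided by library size factors by the authors, a normalized signal, and TPM were deposited beside them. Trim Galore, STAR, DESeq2 and mm10 are named in the submitters' processing notes; the sources used here do not give versions, counter, annotation or strand setting. Symbols were placed by GENCODE M21, or RefSeq on GRCm38.p6. Whole reads were recovered from the normalized values (tolerance 0.001) and gave the depths; 0 columns came from outside the series.

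Genes averaging 10 or more normalized counts in the 22 libraries were tested with limma (3.58.1, R 4.3.3) on log2(normalized count + 1), with all 11 groups in 1 fit, a mean-variance trend, two-sided tests and Benjamini-Hochberg adjustment over 18713 genes (threshold 0.05). Fold changes are on that scale, understate changes of low genes and are given as ± SE. The recovered reads were tested with edgeR (4.0.16) and DESeq2 (1.42.0); the scripts were tested on simulated data. Named genes were the 12 largest called changes each way, up to 5 largest called members of each of 32 gene lists (791 genes), the 3 most abundant genes of shifted chromosomes, markers and any gene said to be named after its value was seen. The 12 each way were taken among genes that averaged at least 50 normalized counts over the 4 libraries of both lines. Their libraries did not overlap between the lines, and clone or gene model symbols were left out. The members and lists were chosen with earlier results of these data known. 1 gene that the rule names is not reported here.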

Additional observations from a re-analysis of the deposited data

Results flagged for a closer look

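Among the 24 largest differences between the lines, 13 combined opposite changes from WT ID, with both libraries of R448Q ID on one side of WT ID and both of H455R ID on the other; the values are log2 differences. The genes were picked by the size of the difference between the lines, a choice that itself favours opposite changes from WT ID. No share over all genes was computed beside this count, so it describes the picked genes only. The R448Q ID minus H455R ID difference itself was called by limma at each gene, and both comparisons with WT ID share its libraries. Cdc20b differed by 4.27, with 2.91 in R448Q ID and −1.36 in H455R ID against WT ID. Scn3a differed by 3.16, with 2.09 in R448Q ID and −1.08 in H455R ID. Tro differed by 2.99, with 1.88 in R448Q ID and −1.11 in H455R ID. For Snx19 the difference was 2.85, with 1.03 in R448Q ID and −1.82 in H455R ID. For Cc2d2a it was 2.82, with 1.46 in R448Q ID and −1.36 in H455R ID. In the other direction, Acta2 differed by −5.83, with −3.80 in R448Q ID and 2.03 in H455R ID. Klk10 differed by −4.98, with −2.31 in R448Q ID and 2.67 in H455R ID. Dppa1 differed by −4.86, with −1.74 in R448Q ID and 3.11 in H455R ID. For Krt7 the difference was −4.12, with −1.06 in R448Q ID and 3.06 in H455R ID. For Myl9 it was −4.03, with −2.18 in R448Q ID and 1.85 in H455R ID. For Fstl3 it was −4.01, with −2.88 in R448Q ID and 1.12 in H455R ID. Tpsg1 differed by −3.88, with −2.66 in R448Q ID and 1.23 in H455R ID, and Dab2 by −3.78, with −2.42 in R448Q ID and 1.35 in H455R ID.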

How the results depend on the processing

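Over 190 named genes and 16 settings, 2837 of 2990 values kept their direction and side of the threshold, 139 lost the call, 9 gained it and 5 reversed. Fn1 reversed to −0.13 with quantile normalization, −0.21 centred by chromosome and −0.14 centred by a running median. Cnn3 reversed to −0.27 with either centring (−0.266 and −0.274). The Ctcf difference was 0.081 on TPM and 0.042 with quantile normalization, neither called, and 0.26 to 0.29 with 1 library left out. Centred by chromosome it was 0.29 and centred by a running median 0.40, called in both. The cause of these shifts was not tested. With a minimum mean of 50 the medians of chromosomes 3 and 11 were 0.51 and 0.15.

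The count of genes called between R448Q ID and H455R ID was 8457 on TPM, 8375 with edgeR and 8094 with DESeq2, and ranged from 6616 to 6927 with 1 library left out. R448Q ID against WT ID then gave 6601 to 7062. H455R ID against WT ID gave 2564 to 3011. Without chromosomes 1, 3, 8 and 11 the calls between the lines split into 2325 higher and 3528 lower.

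Replicate numbers are shared by the groups, and the deviations of same-numbered libraries of R448Q ID and H455R ID had a correlation of 0.0714. Whether a number marks a shared batch cannot be decided from this, since a batch need not shift both lines alike. With the replicate as a block 8366 genes were called between the lines, 8611 for R448Q ID and 4335 for H455R ID against WT ID, and the Ctcf difference was 0.28.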
